A study of Mus musculus with 12 samples.

Results

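The miR-101 family on this mouse array consisted of 3 members, mmu-miR-101a-3p, mmu-miR-101b-3p and mmu-miR-101c, taken by name from the 1881 miRNAs of the array. Of these, 2 were detected on all 12 arrays and miR-101b-3p was detected on none. The 2 detected members moved together on every array, within the error of the scanner. After normalization both lay higher in every untreated diabetic heart and every pargyline-treated control heart than in any untreated control heart, and the group means differed by 0.31 to 0.44 on the log2 scale. How many of all miRNAs tested separated in this way was not counted. An unadjusted p under 0.05 in limma was reached by 58.6% of them for the diabetic and 50% for the pargyline-treated control hearts. With the main normalization and all 12 arrays in the fit neither member passed the adjusted threshold in any comparison. Without 1 array of the treated diabetic group that stood apart, both passed in D against C, as did 68.8% of all miRNAs tested. A correction for base composition took the difference away. Under that correction miR-101a-3p, but not miR-101c, passed as higher in treated diabetic hearts than in untreated diabetic and treated control hearts. In these comparisons 46.3% and 17.6% of 108 miRNAs passed.

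Heart muscle of male C57BL6/J mice aged 5 months was profiled, with 1 array for each of 12 mice and 3 mice in a group. Control mice (C) received neither drug, control mice treated with pargyline (C+P) received 50 mg/kg of this monoamine oxidase inhibitor per day, diabetic mice (D) were made diabetic with streptozotocin, and diabetic mice treated with pargyline (D+P) received both. Streptozotocin, which kills pancreatic beta cells, was injected at 50 mg/kg per day for 5 days, vehicle or pargyline was then given for 12 weeks, and blood glucose of at least 17 mM counted as diabetes. The comparisons ask whether diabetes changes cardiac miRNAs and whether blocking monoamine oxidase alters that change. All groups share strain, sex and age, and the drug acts on the whole animal. RNA came from whole heart muscle, so a loss of one cell type and a fall of the miRNA within each cell cannot be told apart.

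A miRNA silences messenger RNAs that carry a match to its seed, the bases near its 5′ end. The miR-101 family is known for its target Ezh2, a histone methyltransferase of the Polycomb group, and in the heart for restraining fibroblast growth and scarring, in part through the transcription factor c-Fos. Its sequences are rich in A and U. Bases 2 to 7 of miR-101a-3p are also those of miR-144-3p, which is made in red blood cell precursors together with miR-451a.

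The mature sequences are given because the members differ by so few bases that they bear directly on what each array feature can tell apart. They are RefSeq's on build GRCm38.p6, written 5′ to 3′, with bases 2 to 8 in capitals.
mmu-miR-101a-3p: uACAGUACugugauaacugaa
mmu-miR-101b-3p: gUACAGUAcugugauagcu
mmu-miR-101c: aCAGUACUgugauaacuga
mmu-miR-144-3p: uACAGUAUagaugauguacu
MiR-101a-3p, of 21 bases, lies on the minus strand at chr4:101346957-101346977, inside the coordinates of the long noncoding RNA gene E130102H24Rik. MiR-101b-3p, of 19 bases, lies on the plus strand at chr19:29135338-29135356, inside the coordinates of the protein-coding gene Rcl1. MiR-101c, of 19 bases, lies on the minus strand at chr9:3038680-3038698, where no other gene of the annotation table overlaps it. The table gives no exons, so exonic and intronic positions were not separated here.

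MiR-101c is wholly contained in miR-101a-3p. The shared run of 19 bases takes up positions 2 to 20 of miR-101a-3p, counted from 1 at its 5′ end, and is shown in capitals in the longer sequence.
mmu-miR-101a-3p with miR-101c in capitals: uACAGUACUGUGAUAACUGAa
Among all array miRNAs with a sequence in the RefSeq table, 1608 of 1881, only 2 pairs had one mature sequence inside the other, and the other pair, miR-299a-3p and miR-299b-3p, was not detected on any array. MiR-101b-3p shares a run of 15 bases with miR-101a-3p. The stretch of its hairpin that lines up with miR-101a-3p differs from it by the single substitution A16G, counted from 1 at the 5′ end of miR-101a-3p, shown in capitals below.
Mir101b hairpin stretch: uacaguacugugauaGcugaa
The annotated miR-101b-3p begins 1 base earlier than this stretch and ends 3 bases before its end. MiR-101c begins 1 base later than miR-101a-3p. Through these shifted ends no member had the same bases 2 to 8 as another, nor as any other array miRNA with a sequence. With bases 2 to 7, miR-101a-3p matched miR-144-3p and miR-101b-3p matched miR-582-5p. The probe sequences were not used here, so how far the features for miR-101a-3p and miR-101c bind each other's target was not tested.

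The arrays differed in brightness. They detected 144 to 253 miRNAs, and the summed signal of detected miRNAs ranged from 27107 to 89040, with the 3 C arrays the dimmest. C and D were hybridised on one slide and C+P and D+P on another, so pargyline and slide cannot be told apart, and on both slides the diabetic samples lay in the second array row, so diabetes and array row cannot be told apart either. One array stood apart from its group. On D+P replicate 1 the centred normalized values rose with the GC share of the miRNA by 0.31 on the log2 scale per 10% of GC, against 0.06 and -0.07 on the other D+P arrays. This slope lay between 0.09 and 0.14 on the C arrays, between -0.11 and -0.06 on the C+P arrays and between -0.19 and -0.10 on the D arrays.

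MiR-101b-3p was undetected on 12 of 12 arrays, as were the passenger strands miR-101a-5p and miR-101b-5p and miR-582-5p, which shares bases 2 to 7 with it. An undetected miRNA is written as 0.1 by the scanner software, and the lowest signal called detected on an array ranged from 1.34 to 2.24. No level or fold can be given for these miRNAs, and a level below that limit is not shown to be absent.

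MiR-101a-3p was detected on 12 of 12 arrays with scanner signals between 25.5 and 113, in arbitrary units before normalization. In C the 3 hearts gave 33.3, 25.5 and 28.5. In D they gave 59.0, 69.4 and 50.7, and in C+P 54.6, 66.0 and 113. Every D and C+P array was brighter than every C array. In D+P the signals were 28.3, 68.0 and 82.1, and the low value, of replicate 1, lay within the C range while the other arrays lay above it. The error that the scanner software attached to these signals was 7.19% to 9.51%, smaller than the gap between the C arrays and the D and C+P arrays. This error covers neither the spread between mice nor the differing brightness of whole arrays.

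MiR-101c was detected on 12 of 12 arrays with signals between 17.9 and 78.0 and an error of 7.60% to 12.0%. Its signals were 23.7, 17.9 and 19.8 in C and 48.5, 48.3 and 35.0 in D. They were 42.8, 46.5 and 78.0 in C+P and 20.4, 53.1 and 62.1 in D+P. The order of the arrays was nearly that of miR-101a-3p, with all C arrays and D+P replicate 1 at the bottom.

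**Figure D1:**
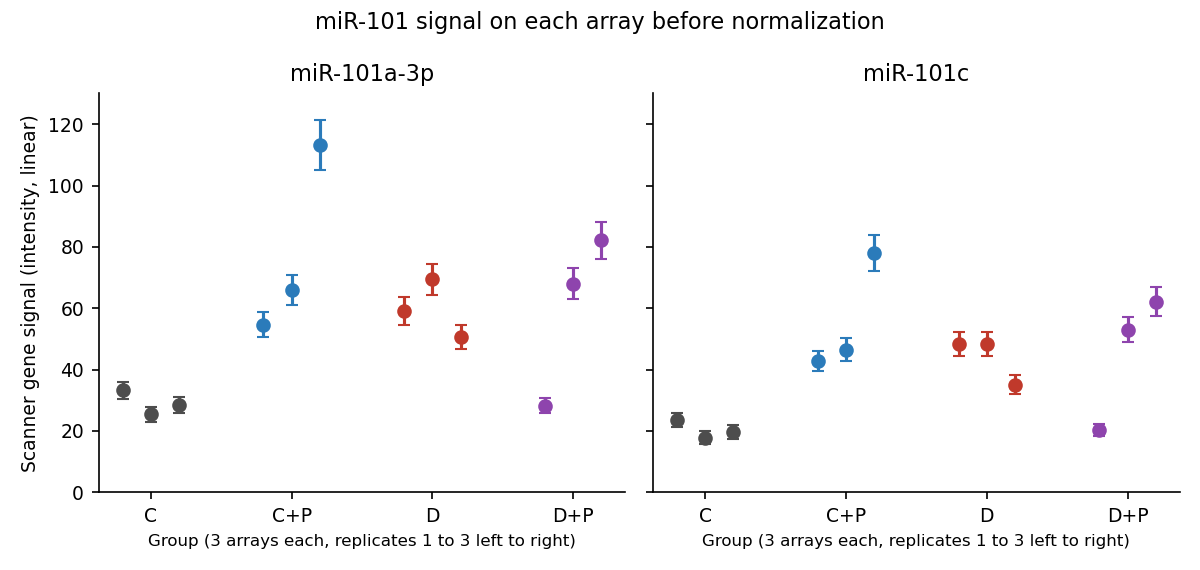
Scanner signal (linear intensity, before normalization) of miR-101a-3p and miR-101c on each of the 12 arrays, by group, with the scanner software's error as bars. The 3 C arrays and D+P replicate 1 lie lowest for both members, at or below 33.3 for miR-101a-3p and 23.7 for miR-101c.

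The 2 members tracked each other. Across the 12 arrays the log2 signal of miR-101a-3p had an SD of 0.69 and that of miR-101c of 0.71, while their within-array log2 difference had an SD of 0.09. The scanner errors of the pair alone would give that difference an SD of 0.15 to 0.22, so the spread between arrays was no larger than the measuring error. Pearson's r between the members was 0.993 on log2 scanner signals and 0.949 on normalized values, over 12 arrays that also share their overall brightness. Among the 8128 pairs of the 128 miRNAs detected on every array, 11 pairs had a smaller SD, and the median SD was 0.51. Among the 11 were the near-identical sequences miR-133a-3p with miR-133b-3p and miR-23a-3p with miR-23b-3p, and also pairs of different families such as miR-133a-5p with miR-30e-5p and miR-30a-5p with miR-378d.

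**Figure D2:**
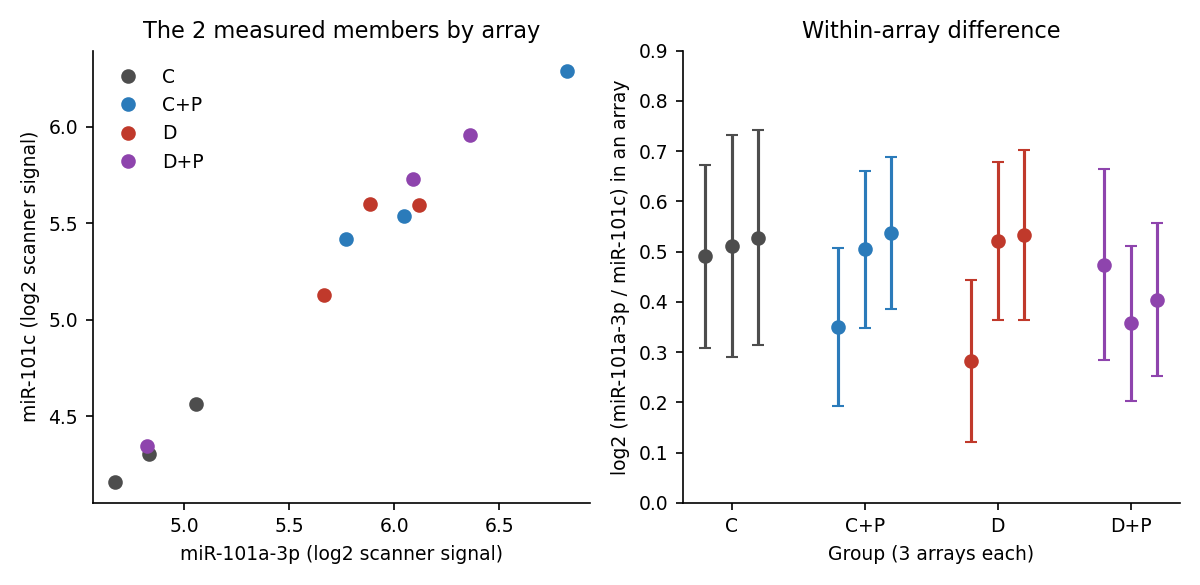
Left, log2 scanner signal of miR-101c against that of miR-101a-3p on the 12 arrays, coloured by group. Right, their log2 difference within each array by group, with bars for the error that the scanner errors of both give; the ratio stays between 1.22 and 1.45 on all arrays, which is a ratio of 2 features and not of molecules.

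The mean of this within-array difference was 0.51 ± 0.02 (SD, n = 3) in C, 0.46 ± 0.10 in C+P, 0.45 ± 0.14 in D and 0.41 ± 0.06 in D+P on log2 scanner signals. Between D and C it changed by -0.06, with p = 0.9 by a two-sided exact permutation test, and the other comparisons gave exact p-values of 0.5 to 0.8. With 3 arrays against 3 this test cannot go below 0.1, and each Benjamini-Hochberg value over the 4 comparisons was 0.9. On scanner values every D+P array lay below every C array, a comparison that was not tested. On normalized values every C+P array lay below every C array, with a change of -0.07 and an exact p of 0.1, the smallest possible, and the other comparisons gave 0.9 or 1. No unequal change of the members passed a test with this number of arrays. The members give 2 readings that cannot be taken as independent.

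After cyclic loess normalization of the 128 miRNAs detected on every array, miR-101a-3p was 5.52, 5.36 and 5.34 in C and 5.61, 6.00 and 5.72 in D on the log2 scale. The means were 5.41 ± 0.10 (SD, n = 3) and 5.78 ± 0.21, and the groups did not overlap. The difference of 0.37 (SE 0.18, 95% interval -0.03 to 0.77), a 1.29-fold higher level in D, had an adjusted p of 0.103 in limma. MiR-101c was 5.02, 4.86 and 4.82 in C and 5.34, 5.50 and 5.16 in D, again without overlap. Its difference of 0.44 (SE 0.19, 95% interval 0.01 to 0.86), or 1.35-fold, had an adjusted p of 0.078. Thus 0 of the 2 members measured passed the threshold of 0.05 in D against C, where 64 of the 128 miRNAs passed, or 50%. At an unadjusted p under 0.05 in limma 1 of the 2 passed, miR-101c, where 58.6% of all miRNAs did. The call depended on which arrays entered the estimate of the spread. Without D+P replicate 1 the differences were 0.36 (limma adjusted p = 0.015) and 0.41 (limma adjusted p = 0.005), and 68.8% of the 128 passed. With only the C and D arrays in the fit the adjusted p-values in limma were 0.040 and 0.016, and 61.7% of the 128 passed. Without D+P replicate 3 the adjusted p in limma was 0.0498 for miR-101c, where 56.2% passed. Before normalization miR-101a-3p was 1.03 and miR-101c 1.10 higher in D on the log2 scale, beside a median of 0.77 over the 128.

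Pargyline in mice without diabetes gave a similar picture, with the same C arrays as reference. MiR-101a-3p was 5.63, 5.72 and 5.79 in C+P, above every C array. The difference from C was 0.31 (SE 0.18, 95% interval -0.09 to 0.70; limma adjusted p = 0.184). MiR-101c was 5.30, 5.23 and 5.29 in C+P, also above every C array, and differed by 0.38 (SE 0.19, 95% interval -0.05 to 0.80; limma adjusted p = 0.135). Again 0 of 2 members passed, where 36.7% of the miRNAs tested did, and none passed at an unadjusted p under 0.05 in limma, where 50% of all did. Both passed without D+P replicate 1, at 0.31 (limma adjusted p = 0.033) and 0.36 (limma adjusted p = 0.011), as did 61.7% of the 128. Before normalization the differences were 1.36 and 1.41, against a median of 1.15.

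Diabetes under pargyline, compared within one slide, left both members near their level in C+P. MiR-101a-3p was 5.24, 5.82 and 5.97 in D+P, and miR-101c was 4.72, 5.45 and 5.55, in both cases with replicate 1 below and the other arrays above every C+P array. The difference from C+P was -0.04 (SE 0.18, 95% interval -0.43 to 0.36; limma adjusted p = 0.879) for miR-101a-3p and -0.03 (SE 0.19; limma adjusted p = 0.882) for miR-101c. The spread in D+P, with an SD of 0.39 for miR-101a-3p and 0.45 for miR-101c, was the widest of the 4 groups. The differences became 0.20 and 0.25 without D+P replicate 1, neither past the threshold. Here 0 of 2 members passed, adjusted or not, where 13.3% of the miRNAs passed after adjustment in limma and 43.8% without it.

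Pargyline in diabetic mice gave no detectable change. The difference of D+P from D was -0.10 (SE 0.18, 95% interval -0.50 to 0.30; limma adjusted p = 0.615) for miR-101a-3p and -0.09 (SE 0.19; limma adjusted p = 0.648) for miR-101c. The D+P arrays spanned those of D for miR-101c, and for miR-101a-3p reached below them. Again 0 of 2 members passed in limma, adjusted or not, against 53.9% of the miRNAs tested after adjustment and 61.7% without it. They were 0.15 and 0.20, with the sign turned, without D+P replicate 1.

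The order of the normalized group means was C, D+P, C+P and D for both members. D+P, C+P and D lay within 0.10 of each other, less than the SD in D+P, and could not be ordered. C lay below D and C+P without overlap but overlapped D+P. How many of all miRNAs tested separated in this way was not counted. Named miRNAs outside the family also separated C from D and from C+P without overlap, such as miR-23a-3p and miR-1a-3p, and miR-208a-3p in the other direction. The mean diabetes difference over both slides was 0.17 (SE 0.13; limma adjusted p = 0.523) for miR-101a-3p and 0.20 (SE 0.14; limma adjusted p = 0.468) for miR-101c, where 1.56% of the miRNAs tested passed. Without D+P replicate 1 these became 0.28 (limma adjusted p = 0.030) and 0.33 (limma adjusted p = 0.013), both past the threshold, as were 32% of the 128. The interaction, the diabetes difference under pargyline minus that without it, was -0.41 (SE 0.26; limma adjusted p = 0.180) and -0.47 (SE 0.27; limma adjusted p = 0.149), where 70.3% passed. Without D+P replicate 3 the interaction of miR-101c was -0.63 (limma adjusted p = 0.044), where 75% passed.

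**Figure D3:**
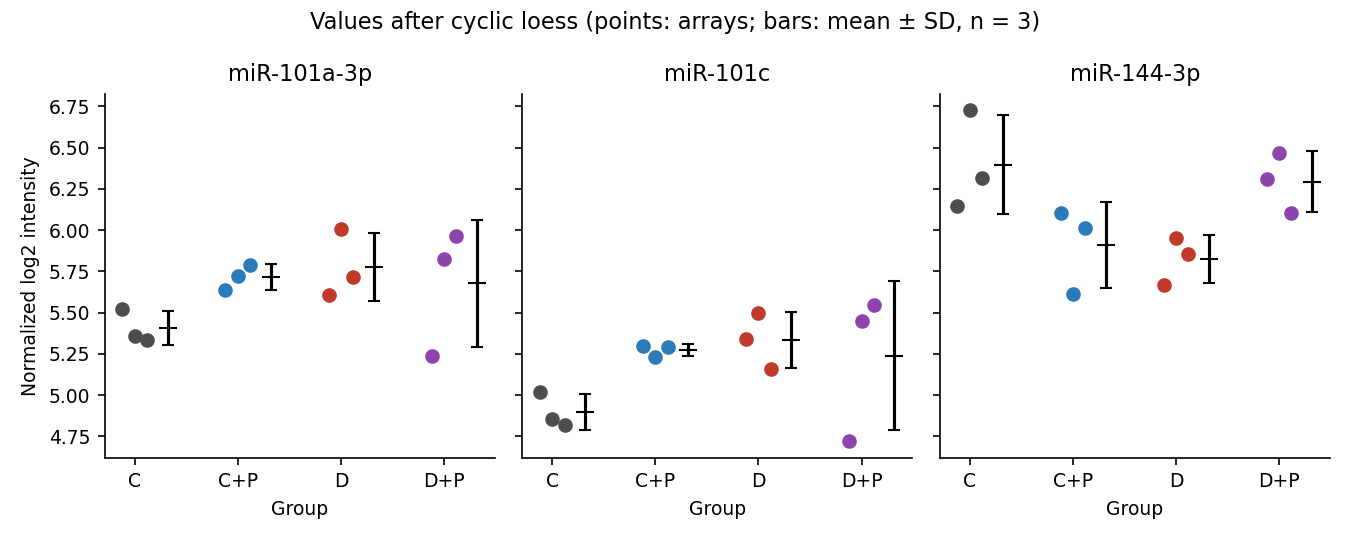
Normalized log2 intensity of miR-101a-3p, miR-101c and miR-144-3p on the arrays of each group (points), with mean and SD (bars, n = 3). For the 2 members all C arrays lie below all D and C+P arrays and D+P replicate 1 lies lowest, while for miR-144-3p the C arrays lie above the D and C+P arrays.

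MiR-144-3p, which shares its first 7 bases with miR-101a-3p, went the other way. Its scanner signals were 50.5, 65.4 and 56.0 in C and 63.3, 68.5 and 55.2 in D, so that its raw signal hardly moved while the arrays grew brighter. After normalization it fell by 0.57 (SE 0.18; limma adjusted p = 0.024) in D against C. It was higher by 0.47 (SE 0.18; limma adjusted p = 0.048) in D+P against D, and its interaction was 0.95 (SE 0.26; limma adjusted p = 0.008). In C+P against C its difference was -0.49, with a limma adjusted p of 0.054.

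Scaling of whole arrays cancels in the difference of 2 miRNAs on the same array, so the members were also set against miR-144-3p there, a test chosen after these values were seen. The log2 difference of miR-101a-3p from miR-144-3p was 0.91 higher in D than in C, and that of miR-101c 0.97 higher, with no overlap of the arrays. In C+P against C these changes were 0.77 and 0.82, also with no overlap. All 4 had an exact permutation p of 0.1, the smallest that 3 arrays against 3 allow, and 0.2 after Benjamini-Hochberg adjustment over 8 comparisons. In D+P against D the changes were -0.52 and -0.49, with overlapping arrays and an exact p of 0.2. These values restate the differences above without scaling, and none passed a threshold of 0.05. The GC share was 33.3% in miR-101a-3p, 36.8% in miR-101c and 30% in miR-144-3p. Of other red blood cell miRNAs, miR-451a differed by -0.13 in D against C and -0.17 in C+P against C and passed in no comparison, and miR-486a-5p differed by -0.21 in D against C (limma adjusted p = 0.383) and fell by 0.85 in C+P against C (limma adjusted p = 0.017). The part of blood in the miR-144-3p values was not tested.

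The GC share of the miRNAs moved with the changes. Across the 108 tested miRNAs with a sequence, Pearson's r between GC share and log2 change was -0.48 in D against C, -0.48 in C+P against C, 0.49 in D+P against C+P and 0.50 in D+P against D; these are correlations across miRNAs that share their arrays, not across samples. The 30 miRNAs with a GC share no higher than the 42.1% of miR-101b-3p included both members measured. Their median change in D against C was 0.40, with 12 that rose and 2 that fell, beside a median of 0.02 with 31 risen and 33 fallen among all 128. In D+P against D their median was -0.46, with 2 that rose and 17 that fell, beside -0.09 with 34 and 35 among all. The family's changes of 0.37 and 0.44 in D against C thus lay next to the median of the AU-rich miRNAs, whereas its changes of -0.10 and -0.09 in D+P against D lay nearer to that of all miRNAs.

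**Figure D4:**
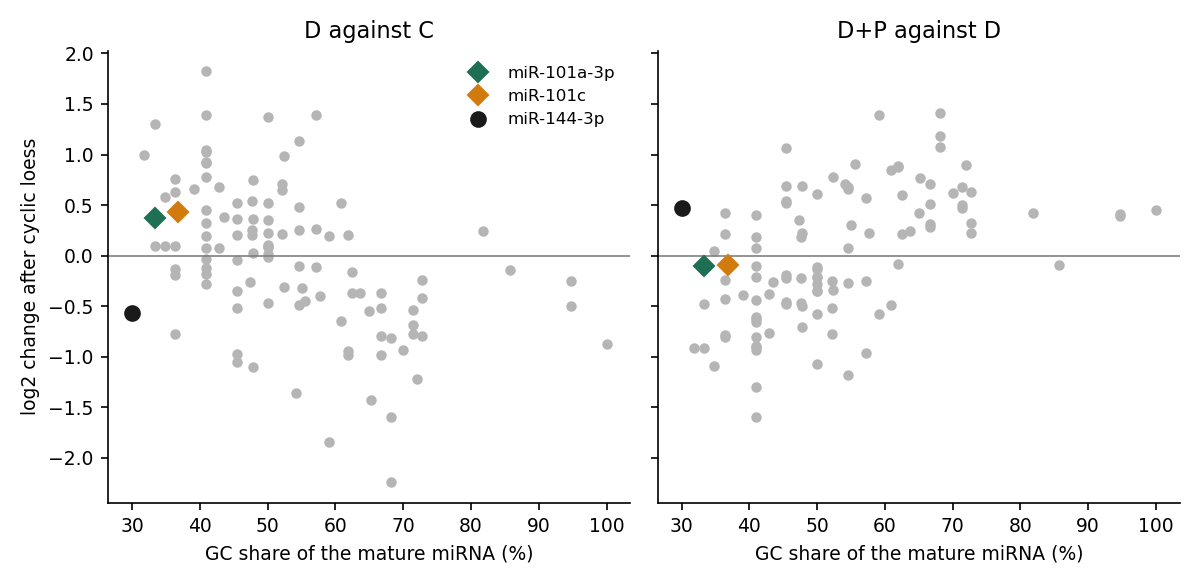
Log2 change after cyclic loess against the GC share of the mature sequence, in D against C (left) and D+P against D (right), for the 108 tested miRNAs with a sequence. Changes fall with GC share on the left (r = -0.48) and climb with it on the right (r = 0.50); the 2 miR-101 members lie at 33.3% and 36.8% GC with changes of 0.37 and 0.44 on the left and -0.10 and -0.09 on the right.

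A linear correction of each array for GC share removed the difference between D and C and brought out another. MiR-101a-3p then differed by -0.08 and miR-101c by 0.07 in D against C, with limma adjusted p-values of 0.496 and 0.604, and by -0.10 and 0.04 in C+P against C. The corrected values of miR-101a-3p were 5.87, 5.95 and 5.84 in D+P, all above the highest value of the other 9 arrays, 5.70. Those of miR-101c were 5.24, 5.55 and 5.44 in D+P, above the highest of the others, 5.20. D+P replicate 1 then lay between the other D+P arrays for miR-101a-3p and stayed lowest of the 3 for miR-101c. Under this correction 46.3% of the 108 miRNAs passed in D+P against D and 17.6% in D+P against C+P. MiR-101a-3p was higher in D+P than in D by 0.34 (limma adjusted p = 0.016) and than in C+P by 0.36 (limma adjusted p = 0.026). MiR-101c was higher by 0.26 (limma adjusted p = 0.055) and 0.30 (limma adjusted p = 0.069), past the threshold in neither. Which of the 2 sets of values is nearer to the amounts in the hearts was not tested.

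**Figure D5:**
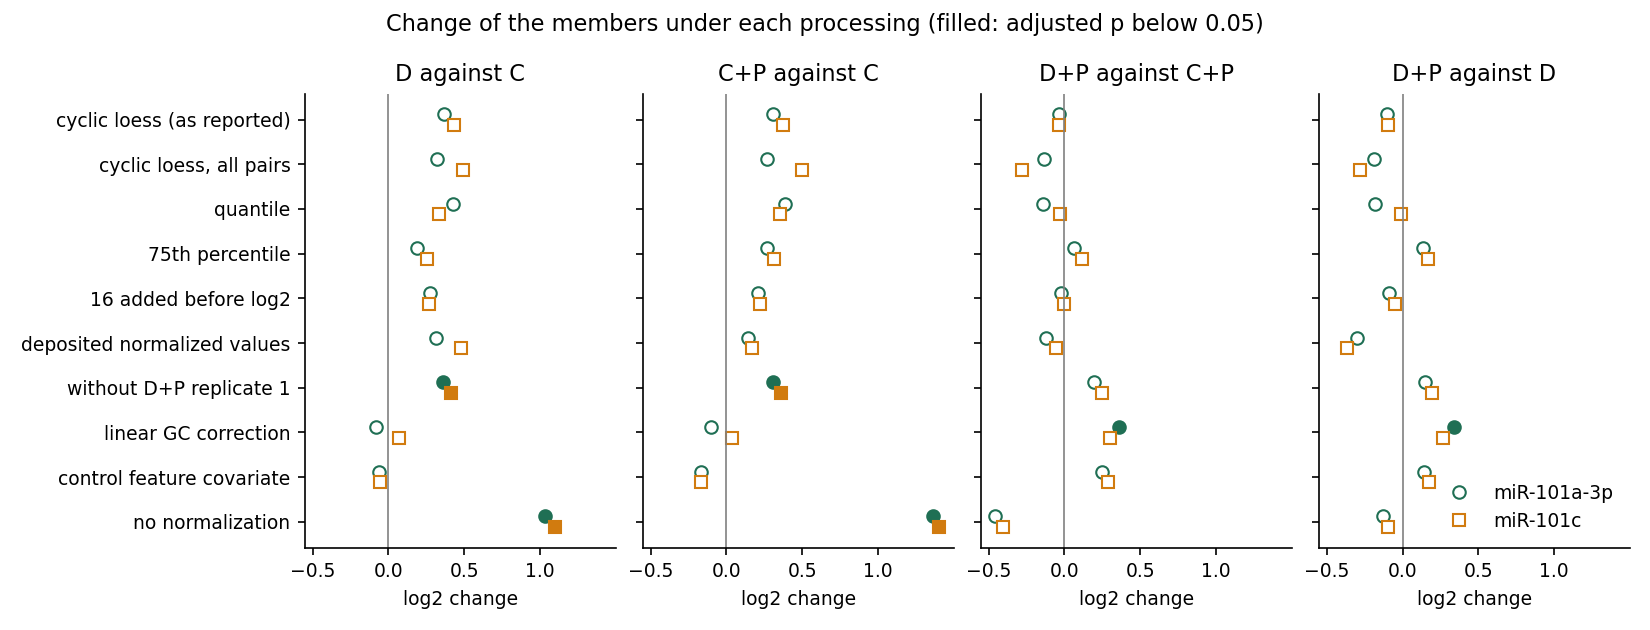
Log2 change of miR-101a-3p (circles) and miR-101c (squares) in 4 comparisons under 10 ways of processing, filled where the adjusted p is below 0.05. The changes against C lie above 0 in 8 of these 10 settings for miR-101a-3p and in 9 for miR-101c, and the changes of D+P lie on both sides of 0.

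The miRNAs whose normalized pattern over the 12 arrays was most like the mean of the 2 members were miR-23a-3p (Pearson's r 0.88), miR-143-3p (0.88), miR-93-5p (0.88), miR-30b-5p (0.86) and miR-19b-3p (0.85). Their changes in D against C ranged from 0.47 (miR-143-3p) to 0.71 (miR-93-5p) on the log2 scale, which is a description only, since they were chosen for a pattern over these same arrays in which C lies low. MiR-143-3p is abundant in smooth muscle, miR-23a-3p is known from cardiac hypertrophy, and miR-93-5p and miR-19b-3p come from related polycistrons. Likeness rested in part on D+P replicate 1, which was low in all 5 as in the members, and with the GC correction the most alike miRNA was miR-378c with r = 0.71. The least alike was miR-6937-5p, with r = -0.91.

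MiRNAs known to limit or to promote cardiac fibrosis were set beside the family. Of 14 on the list known to limit it, all were tested, and in D against C 3 rose, 1 fell and 10 did not pass, with a median of 0.05. That is 28.6% called, against 50% of all miRNAs tested. The 3 were the muscle miRNA miR-1a-3p (1.32, limma adjusted p = 0.003), miR-26b-5p (1.30, limma adjusted p = 0.010) and miR-30b-5p (0.71, limma adjusted p = 0.028), and the one that fell was miR-30a-5p (-0.52, limma adjusted p = 0.030). The miR-29 family, which represses collagen genes, and miR-133a-3p did not pass in D against C. In D+P against D 3 rose and 2 fell, 35.7% against 53.9% of all. MiR-1a-3p and miR-26b-5p fell by 0.71 and 0.91, and miR-30a-5p, miR-30d-5p and miR-30e-5p rose by 0.52, 0.53 and 0.40.

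Of 9 on the list known to promote fibrosis, 7 were tested, since miR-214-3p was detected on 6 and miR-155-5p on 7 arrays. In D against C miR-199a-3p (0.91, limma adjusted p = 0.008), miR-199a-5p (0.65, limma adjusted p = 0.007) and miR-34a-5p (0.52, limma adjusted p = 0.014) rose, and the cardiac miR-208a-3p fell by 0.78 (limma adjusted p = 0.007). These are 57.1% of the 7, against 50% of all, and the median over the 7 was 0.35. In D+P against D miR-199a-3p, miR-34a-5p and miR-21a-5p fell, by 0.80, 0.58 and 0.43, and none rose, so that 42.9% passed against 53.9% of all. Both lists therefore held miRNAs that passed in opposite directions, and the 2 miR-101 members, at 0.37 and 0.44 in D against C, lay inside the range of each list, from -0.52 to 1.32 and from -0.78 to 0.91.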

How the data were processed

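MiRNA profiles came from 12 one-colour arrays, each of 1 mouse heart. For every miRNA the authors deposited the scanner software's total gene intensity, its error and a detection flag, without normalization between arrays, and a table of intensity values that they filtered for detection and normalized by cyclic loess. The methods give no software for that loess. The sample records describe the source as heart muscle, while their extraction text speaks of macrophages.

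The scanner intensities of the 128 miRNAs detected on all 12 arrays were put on the log2 scale and passed through cyclic loess (span 0.7, 3 iterations), the filter and normalization that the methods name. A model with 1 mean for each of the 4 groups was fitted by lmFit and eBayes in limma 3.58.1 (R 4.3.3). P-values were adjusted by Benjamini-Hochberg over the 128, with a threshold of 0.05. They rest on the spread of mouse, labelling and array together, since each mouse had 1 array. The number of arrays limits the precision. Identical signals were found in no pair of arrays. The fit was tested on simulated data with independent noise and a constant shift for each array. These data held no GC slope, slide difference or outlying array.

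Members and lists were chosen with earlier results of these data known. Named besides the members are their other strands, miRNAs sharing bases 2 to 7, the 5 most alike over the 12 arrays, and up to 4 of each fibrosis list past the threshold in D against C or D+P against D, by size; miR-451a, miR-486a-5p, miR-30a-5p, miR-30e-5p, miR-21a-5p, miR-378c and miR-6937-5p, and pairs given for their close tracking, were added after their values were seen. Alternatives covered normalization, detection filter, an offset of 16, the authors' values, an intensity trend, the samples fitted, Holm adjustment, the methods' t-test, the replicate number as a block, GC correction and each array left out. Cyclic loess over all pairs and a covariate of the 10 control features detected on every array were added after seeing the data.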

Additional observations from a re-analysis of the deposited data

Results flagged for a closer look

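The interaction is the diabetes difference under pargyline minus that without it. It passed the adjusted threshold in limma for all 13 tested miRNAs that the naming rule gave outside the family. Of all tested miRNAs 70.3% passed. All but miR-144-3p were chosen for passing in D against C or D+P against D, or for likeness to the members. The interaction is built from the same values, so their passing and signs were not independent of that choice. The interaction was positive for miR-144-3p (0.95), miR-30d-5p (1.20) and miR-208a-3p (0.89). It was negative for miR-23a-3p (-0.77), miR-143-3p (-0.78), miR-93-5p (-1.06), miR-30b-5p (-1.08) and miR-19b-3p (-0.70), the 5 miRNAs most like the family. It was also negative for miR-1a-3p (-2.19), miR-26b-5p (-2.13), miR-199a-3p (-1.66), miR-199a-5p (-0.76) and miR-34a-5p (-0.91). Of the 7 miRNAs named after their values were seen, it was positive and passed for miR-486a-5p (0.97), miR-30a-5p (1.15), miR-30e-5p (0.60), miR-378c (0.85) and miR-6937-5p (1.65), was negative and passed for miR-21a-5p (-0.83), and did not pass for miR-451a. The members themselves, at -0.41 and -0.47, did not pass. With the covariate of control feature signal 0 of the 128 passed for the interaction in limma, and 12 at an unadjusted p under 0.05.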

How the results depend on the processing

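The changes of miR-101a-3p and miR-101c were recomputed under 332 combinations of comparison, member and setting, arrays left out included. In 284 the direction and the side of the threshold stayed as reported. In 21 the change passed in the reported direction, and in 27 the sign turned. The causes were not tested. For miR-101a-3p the linear GC correction turned the sign of D+P against C+P, D+P against D and the interaction, and each then passed. Holm adjustment, the intensity trend, the replicate block, the t-test and the fit of 2 groups keep the reported estimate and could not turn a sign. Holm adjustment could not bring a change past the threshold either. Values are given for miR-101a-3p and then miR-101c, with limma unless stated. Without normalization D against C gave 1.03 and 1.10, C+P against C 1.36 and 1.41, and the interaction -1.49 and -1.50, all past the threshold. In that setting 60 of the 128 miRNAs passed in D against C and 96 in C+P against C. With only the 2 groups compared in the fit, D against C (0.37 and 0.44) and C+P against C (0.31 and 0.38) passed, as did 79 and 85 of the 128. The methods' t-test, adjusted by Benjamini-Hochberg, also called C+P against C at 0.31 and 0.38, where 53 of the 128 passed. Cyclic loess over all pairs of arrays took the interaction of miR-101c to -0.78, past the threshold. With the linear GC correction, which 20 tested miRNAs without a sequence could not enter, D against C was -0.082 for miR-101a-3p, C+P against C -0.10, the change of D+P from C+P 0.36 and 0.30, D+P against D 0.34 and 0.26, and the interaction 0.44 and 0.23. The control feature covariate itself differed between the groups, as given above. With it D against C was -0.060 and -0.057, and C+P against C was -0.17 for both. The change of D+P from C+P was 0.24 and 0.29, D+P against D 0.14 and 0.18, and the interaction 0.31 and 0.35. Scaling by the 75th percentile over the 128 miRNAs tested gave D+P against C+P 0.061 and 0.11, and D+P against D 0.13 and 0.17. Scaling to that percentile of all miRNAs was not run, since it is the undetected value of 0.1 on every array. Leaving out 1 array at a time moved D against C between 0.27 and 0.46 for miR-101a-3p and between 0.37 and 0.54 for miR-101c, the change of C+P against C between 0.27 and 0.37 and between 0.32 and 0.43, that of D+P against C+P between -0.18 and 0.20 and between -0.19 and 0.25, D+P against D between -0.25 and 0.15 and between -0.25 and 0.20, diabetes over both slides between 0.093 and 0.28 and between 0.12 and 0.33, and the interaction between -0.56 and -0.16 and between -0.63 and -0.16. D+P against C+P of miR-101a-3p without C+P replicate 3 was 0.0008. The change of the within-array difference between the members, -0.07 in D against C and -0.004 and -0.005 in D+P against C+P and D+P against D on normalized values, became 0.088, -0.11 and -0.17 with quantile normalization. Over the settings other than left-out arrays, the number of miRNAs past the threshold ranged from 1 to 98 in D against C (64 as reported), 0 to 33 in D+P against C+P (17), 2 to 96 for C+P against C (47), 0 to 100 in D+P against D (69), 0 to 6 for diabetes over both slides (2) and 0 to 123 for the interaction (90). Leaving out arrays gave 33 to 88, 1 to 73, 3 to 79, 13 to 89, 0 to 41 and 76 to 96. The reported counts and those with an array left out are of 128 miRNAs. A looser detection filter gave the 98, 100 and 123, but with 209 miRNAs tested. The linear GC correction, with 108 tested, gave the 6. Without a filter 1881 were tested. Counts of different numbers tested cannot be compared directly, so the 98, 100 and 123 do not show a larger share passing. Where no filter on detection left 0 calls in D+P against C+P and D+P against D, 69 and 128 miRNAs had an unadjusted p under 0.05 in limma. Same-numbered samples of different groups are different mice. Their deviations from the group means correlated with r between -0.34 and 0.49, over 0.1 in 4 of 12 pairs. These values alone do not decide whether the numbers mark a pairing, and the samples were fitted as unpaired. With the replicate block the changes of the members stayed at 0.37 and 0.44 in D against C, no member passed in any comparison, and 59, 8, 35, 58, 2 and 86 miRNAs passed in the 6 comparisons in the order above. MiR-101b-3p lay below detection on all arrays, the brightest included.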
